A study of Mus musculus with 12 samples.

Results

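The genes of the cardiac sodium channel complex examined here are the 8 rows of the deposited gene table, out of 40690 Ensembl genes, that carry the symbols Scn10a, Scn4a, Scn2b, Scn3b, Scn4b, Fgf12, Fgf13 and Gpd1l. They were taken by symbol, from a list made with earlier results of these data known. All 8 passed the filter on low values, with between 7 and 1832 reads in any library. The mice were adult, labelled as aged 2 to 3 months and given doxycycline chow for 3 weeks, and right atrial RNA was taken with no interval off the drug. One genotype is labelled iNICD, in a series whose title names transient Notch activation, and the other is littermate controls given the same chow. Each genotype has 6 libraries. The labels do not say which promoter drives the transgene, which cells express it or what sex the mice were.

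A voltage-gated sodium channel opens when the membrane depolarises and carries the inward current of the atrial upstroke. Its pore is a large alpha subunit. Beta subunits are single-pass membrane proteins with an immunoglobulin fold that change gating and cell-surface level, and the FGF homologous factors, which are not secreted, bind the intracellular end of the alpha subunit and shift its inactivation. Gpd1l is an enzyme-like protein related to glycerol-3-phosphate dehydrogenase that affects the amount of channel at the surface. In people, rare variants of several of these genes have been linked to inherited arrhythmia.

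The sequences around the transcription start are shown for 4 of these genes because Notch acts through the DNA-binding protein RBPJ. Scn10a and Fgf12 are the members whose listed promoters hold the RBPJ core, while Scn2b and Scn4b are neighbours on chromosome 9. Each is RefSeq sequence of GRCm38.p6 on the strand of the gene, from 250 bases before to 50 bases after a start, at chr9:119718983-119719282 (minus strand) for Scn10a, chr16:28564902-28565201 (minus) for the second of 4 starts listed for Fgf12, chr9:45117626-45117925 (plus) for Scn2b and chr9:45138374-45138673 (plus) for Scn4b. Capitals mark the RBPJ core TGGGAA or its reverse complement TTCCCA.
Scn10a: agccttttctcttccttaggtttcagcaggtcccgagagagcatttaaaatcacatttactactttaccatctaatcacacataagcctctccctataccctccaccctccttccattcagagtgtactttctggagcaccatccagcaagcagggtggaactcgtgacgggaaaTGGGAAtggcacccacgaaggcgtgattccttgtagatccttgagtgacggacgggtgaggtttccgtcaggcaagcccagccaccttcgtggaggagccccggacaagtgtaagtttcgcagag
Fgf12: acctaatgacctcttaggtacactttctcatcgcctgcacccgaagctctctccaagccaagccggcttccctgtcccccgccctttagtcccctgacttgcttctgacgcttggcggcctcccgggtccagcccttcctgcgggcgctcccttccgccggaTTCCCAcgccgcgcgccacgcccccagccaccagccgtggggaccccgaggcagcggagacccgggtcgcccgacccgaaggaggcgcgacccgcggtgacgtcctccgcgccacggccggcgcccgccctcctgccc
Scn2b: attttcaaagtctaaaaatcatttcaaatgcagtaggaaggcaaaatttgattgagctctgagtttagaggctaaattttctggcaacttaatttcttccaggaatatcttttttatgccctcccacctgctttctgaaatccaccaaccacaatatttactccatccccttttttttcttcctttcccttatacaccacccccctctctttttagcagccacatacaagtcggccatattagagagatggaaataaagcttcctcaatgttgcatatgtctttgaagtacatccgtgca
Scn4b: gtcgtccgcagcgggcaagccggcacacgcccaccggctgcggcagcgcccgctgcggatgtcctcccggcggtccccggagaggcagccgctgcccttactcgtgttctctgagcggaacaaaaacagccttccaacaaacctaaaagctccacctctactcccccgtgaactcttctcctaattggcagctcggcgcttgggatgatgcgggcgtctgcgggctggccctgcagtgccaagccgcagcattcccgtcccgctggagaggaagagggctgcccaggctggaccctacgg

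Promoters were listed for 7 of the 8 members, Scn3b being the exception, and gave 13 windows because Fgf12 and Fgf13 have 4 starts each. The RBPJ core, searched on both strands, was found in 2 of the 13 windows, 75 bases before the RefSeq start of Scn10a and 88 bases before that start of Fgf12. Both windows lie inside the genes as GENCODE M21 gives them, downstream of the outermost start there. No GENCODE transcript of Scn10a holds the end of its window as an unbroken stretch. An exon that ends inside the window would give this too, so it does not show where GENCODE places that start. The RBPJ core occurs in 25.6% of the 32851 promoters of the same length. The T-box core GGTGTG (or CACACC) was in none of the 13 windows and in 19.0% of all promoters. The MEF2 core TAAAAATA (or TATTTTTA) was in 2 windows, 1 of the other starts of Fgf12 and 1 of Fgf13, and in 2.72% of all promoters. These are matches of letters in short windows. The measured values cover all transcripts of a gene together, so the use of single starts was not seen.

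The comparison asked how transcripts of the channel complex differed in iNICD right atria. None of the 8 members passed the test (limma on log2(CPM + 0.5), where CPM is the number of reads of a gene scaled to the same total in every library, with Benjamini-Hochberg adjusted p under 0.05 over 14336 genes), beside 6.71% of all genes tested, 4.87% higher and 1.84% lower in iNICD. At an unadjusted p under 0.05 the count was 2 of 8, Scn10a and Scn2b, beside 18.8% of all genes. edgeR called none of the 8 (7.02% of all genes) and had 3 at an unadjusted p under 0.05 (19.5% of all genes). DESeq2 called 1, Scn10a (9.97% of the genes it tested), and had 4 at an unadjusted p under 0.05 (19.8%). No member had iNICD and control libraries without overlap, which 4.59% of all genes did. The labels were checked on Notch1, at 3064 to 5358 CPM in iNICD and 192 to 293 CPM in control libraries. The median log2 fold change of the 8 members was -0.11, with 4 above 0 and 4 below, beside 0.05 over all genes tested.

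**Figure D1:**
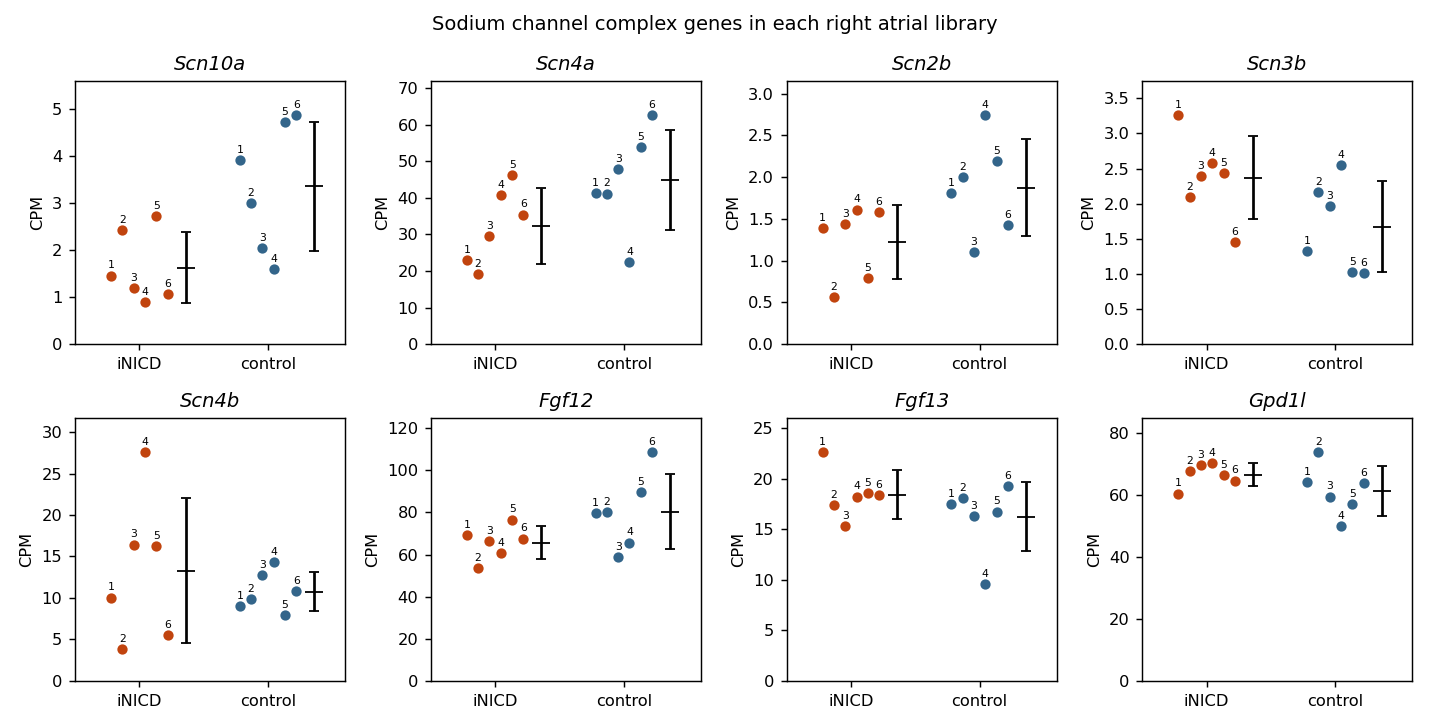
Level of each sodium channel complex gene in CPM (vertical axes, each from 0) in the 6 iNICD and 6 control right atrial libraries, with the library number beside each point and the mean ± SD beside each group. In every panel the groups overlap. Scn10a spans 0.902 to 2.72 CPM in iNICD and 1.59 to 4.86 CPM in control libraries, and Scn4b spans 3.87 to 27.6 CPM in iNICD and 7.93 to 14.3 CPM in control libraries.

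Among the alpha subunits, Scn10a encodes the pore of a channel best known from pain-sensing neurons. The Scn10a gene (ENSMUSG00000034533) lies on the minus strand of chromosome 9, from 119608456 to 119719322 in GRCm38. Its lowest, median and highest levels were 0.902, 1.33 and 2.72 CPM in iNICD libraries, against 1.59, 3.46 and 4.86 CPM in control libraries. All 6 iNICD libraries were below the control median and 4 were below the lowest control. The log2 fold change of Scn10a was -0.85 (SE 0.27, 95% interval -1.42 to -0.27, limma adjusted p = 0.079, exact two-sided permutation p = 0.026). On the scale of log2(CPM + 0.5) this is a ratio of 0.556, with a 95% interval of 0.373 to 0.829. The gene rested on 14 to 38 reads in an iNICD library and on 25 to 89 reads in a control library. Scn10a passed the threshold in 6 of 25 alternatives, among them the fit without control 4 (adjusted p = 0.019, log2 fold change -1.01) and the fit without iNICD 5 (0.044, -0.98), and the adjusted p ranged from 0.0047 to 0.17 over all of them.

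Neuronal markers were looked at beside Scn10a because intracardiac neurons could be part of the tissue. Their summed level over 15 genes was 14.6 to 40.1 CPM in iNICD and 27.6 to 74.2 CPM in control libraries. Of 7 such markers that could be tested, 1, the noradrenaline-synthesis gene Dbh, fell (log2 fold change -1.54, limma adjusted p = 0.0016), beside 1.84% of all genes tested. The defining marker Phox2a was at 0 to 0.258 CPM in iNICD and 0.0684 to 0.393 CPM in control libraries. Control 4 had the highest neuronal sum of all libraries and the lowest Scn10a level of the controls. That library was also the lowest control for Scn4a, Fgf13 and Gpd1l and the highest for Scn2b, Scn3b and Scn4b. The part of neurons in the Scn10a values was not tested.

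Scn4a encodes the main alpha subunit of skeletal muscle. The Scn4a gene (ENSMUSG00000001027) lies on the minus strand of chromosome 11, from 106318592 to 106353288. It was at 19.3, 32.5 and 46.2 CPM (lowest, median and highest) in iNICD libraries, against 22.4, 44.6 and 62.5 CPM in control libraries. In 5 of 6 iNICD libraries it was below the control median, but the lowest control, control 4, was below 5 of the iNICD libraries. The log2 fold change of Scn4a was -0.46 (SE 0.26, 95% interval -1.02 to 0.09, limma adjusted p = 0.37), which did not pass the test. With 1 library left out it ranged from -0.65, without control 4, to -0.33, without iNICD 2.

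Scn4a was also looked at apart in libraries with high and low Xist, an RNA made from the inactive X chromosome. With Xist above 100 CPM, Scn4a was at 19.3 to 29.5 CPM in 3 iNICD libraries, against 41.1 to 53.9 CPM in 4 control libraries, a log2 difference of -0.94. With low Xist it was at 35.4 to 46.2 CPM in 3 iNICD libraries, against 22.4 and 62.5 CPM in 2 control libraries, a log2 difference of 0.11. The groups were separate in the first class of libraries and overlapped in the second, which held only 2 controls. The share of all genes that were separate in the first class was not counted. The test of whether the classes differ, an interaction term in limma, did not pass. It gave -1.06 (SE 0.44, unadjusted p = 0.035, adjusted p = 0.90 over all genes). For that term 0 of 14336 genes passed. The other 7 members had unadjusted p of 0.27 or more for that term.

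Skeletal muscle markers were taken beside Scn4a. The sum of 10 such genes was 410 to 746 CPM in iNICD and 798 to 1121 CPM in control libraries. It was made up mostly of Ckm, the muscle creatine kinase that the heart also expresses, which fell (log2 fold change -0.84, limma adjusted p = 0.0010). The defining myosin genes Myh1, Myh2 and Myh4 were at or below 1.10 CPM in every library and Myod1 was listed at 0 in all 12. Whether the lower muscle sum bears on Scn4a was not tested.

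None of the 3 beta subunit genes passed the test. Scn2b encodes a subunit that is linked to the alpha subunit by a disulfide bond. The Scn2b gene (ENSMUSG00000070304) lies on the plus strand of chromosome 9, from 45117782 to 45130070. Its levels were 0.564, 1.41 and 1.61 CPM in iNICD libraries, against 1.10, 1.90 and 2.74 CPM in control libraries (lowest, median and highest). All 6 iNICD libraries were below the control median and 2 were below the lowest control. This was a log2 fold change of -0.47 (SE 0.22, 95% interval -0.93 to -0.01, limma adjusted p = 0.25, exact permutation p = 0.069).

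Scn3b encodes a non-covalently attached beta subunit. The Scn3b gene (ENSMUSG00000049281) lies on the plus strand of chromosome 9, from 40269217 to 40291618. It was at 1.45, 2.41 and 3.26 CPM in iNICD libraries, against 1.01, 1.64 and 2.55 CPM in control libraries. In 5 of 6 iNICD libraries the level was above the control median, and 2 of them were above the highest control. For Scn3b the log2 fold change was 0.43 (SE 0.21, 95% interval -0.02 to 0.87, limma adjusted p = 0.29, exact permutation p = 0.076). Per kilobase of exon, the ratio of Scn3b to Scn2b was 0.782, 1.71 and 3.17 (lowest, median and highest) in iNICD libraries, against 0.400, 0.708 and 1.52 in control libraries, so the ratios overlapped.

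Scn4b encodes the disulfide-linked subunit whose intracellular tail is known to promote resurgent sodium current in neurons. The Scn4b gene (ENSMUSG00000046480) starts 8325 bases beyond the end of Scn2b, at 45138395 to 45154152. Its mean differed little, at 13.3 ± 8.76 CPM in iNICD and 10.8 ± 2.39 CPM in control libraries (SD, n = 6 each), with a log2 fold change of 0.04 (SE 0.40, 95% interval -0.82 to 0.90, limma adjusted p = 0.97). The sign of this value turned under 9 alternatives. The spread of the levels was wide in iNICD. The highest library was at 7.14 times the lowest in iNICD and 1.81 times in controls, and the coefficient of variation was 65.9% in iNICD and 22.2% in controls. In all, 2 iNICD libraries were below the lowest control and 3 were above the highest control.

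The levels of Scn4b in iNICD libraries 1 to 6 were 10.1, 3.87, 16.4, 27.6, 16.3 and 5.48 CPM. The sum of the ventricular markers Myl2, Myl3, Myh7, Irx4 and Lbh varied in a similar order there. In the same libraries it was 1781, 585, 1778, 2567, 1356 and 725 CPM. Most of it came from Myh7, a myosin heavy chain of ventricle and stressed muscle, so its order is mainly that of 1 gene. Of these markers only Lbh was called, at 54.7 to 103 CPM in iNICD and 27.0 to 46.1 CPM in control libraries (log2 fold change 1.03, limma adjusted p = 0.00089). It rose without overlap, and 4.59% of all genes had no overlap. Myl3 (log2 fold change -0.76), Myl2 (-0.37) and Myh7 (0.07) did not pass, and Irx4 was below the filter. In iNICD the libraries with the lowest, the next lowest and the highest value were the same for both measures. In controls 1 to 6 Scn4b was at 9.02, 9.82, 12.7, 14.3, 7.93 and 10.8 CPM, with marker sums of 602, 588, 2998, 1217, 1560 and 1547 CPM, and the orders differed. Myl2, the defining light chain of ventricle, stayed at 1.69 to 9.98 CPM in iNICD and 1.4 to 50.3 CPM in control libraries. The part of ventricular tissue in the Scn4b values was not tested.

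Fgf12 had the higher level per length of the 2 FGF homologous factors among the members. The Fgf12 gene (ENSMUSG00000022523) lies on the minus strand of chromosome 16, from 28160098 to 28753068. It was at 53.4, 66.9 and 76.5 CPM (lowest, median and highest) in iNICD libraries, against 58.9, 79.8 and 109 CPM in control libraries. All 6 iNICD libraries were below the control median, and 1 was below the lowest control. This gave Fgf12 a log2 fold change of -0.27 (SE 0.13, 95% interval -0.55 to 0.00386, limma adjusted p = 0.27, exact permutation p = 0.093). It was -0.18 without control 6 and -0.42 without the 3 libraries richest in Gm42418, and did not pass in either fit.

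Fgf13 lies on the X chromosome, from 59062145 to 59568071 on the minus strand (ENSMUSG00000031137). In mouse heart its product is a known regulator of sodium current. It was at 15.3, 18.3 and 22.7 CPM in iNICD libraries, against 9.56, 17.1 and 19.3 CPM in control libraries. The iNICD range covered the upper part of the control range, 1 iNICD library was above every control, and control 4 was far below the other controls. The log2 fold change of Fgf13 was 0.20 (SE 0.15, 95% interval -0.11 to 0.51, limma adjusted p = 0.53), and without control 4 it was 0.06. Per kilobase of exon, the ratio of Fgf12 to Fgf13 was 1.98, 2.27 and 2.80 in iNICD libraries, against 2.33, 3.20 and 4.45 in control libraries, with overlap.

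Gpd1l (ENSMUSG00000050627, chromosome 9, 114899341 to 114933987, minus strand) varied least. It was at 60.5, 67.2 and 70.3 CPM in iNICD libraries, against 49.9, 61.7 and 73.9 CPM in control libraries, so the iNICD range lay inside the control range. The log2 fold change of Gpd1l was 0.12 (SE 0.09, 95% interval -0.06 to 0.31, limma adjusted p = 0.49). The upper bound is a ratio of 1.24. Without control 4 the value was 0.067.

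**Figure D2:**
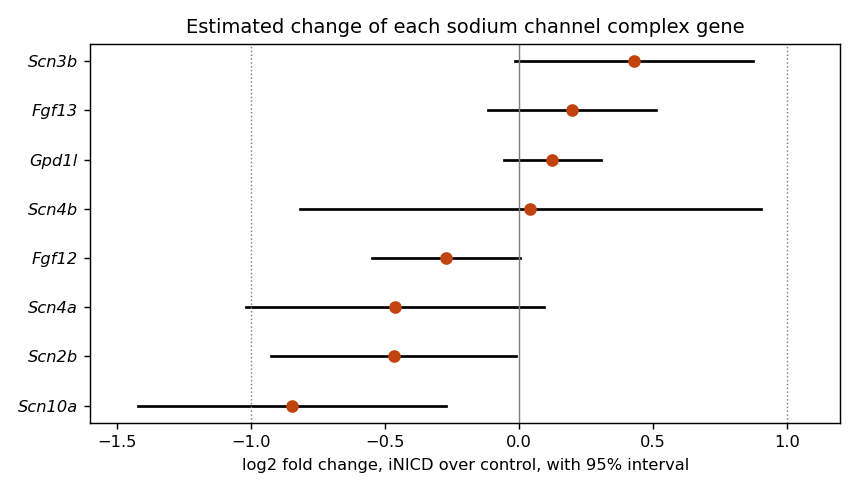
Log2 fold change of each gene in iNICD over control libraries (horizontal axis), with the limma estimate as a point and its 95% interval as a line. Dotted lines mark a change of 2-fold in either direction. The intervals of Scn10a (-1.42 to -0.27) and Scn4a (-1.02 to 0.09) reach past a 2-fold lower level, and the other 6 stay within 2-fold on this scale, that of log2(CPM + 0.5).

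On the log2(CPM + 0.5) scale, which shrinks the change of low genes, the 95% interval of 6 of the 8 genes lay inside a 2-fold change in either direction, and that of Scn10a and Scn4a did not. This bound does not hold on other scales for the beta subunit genes. With a pseudocount of 0.1, the log2 fold change was -0.60 (SE 0.28) for Scn2b and 0.52 (SE 0.26) for Scn3b, and with DESeq2 it was -0.66 (SE 0.32) for Scn2b, 0.45 (SE 0.30) for Scn3b and 0.26 (SE 0.45) for Scn4b. A range of 2 SE around each of these reaches past 2-fold. The intervals of Scn10a and Scn2b excluded 0 before adjustment. Every alternative kept the sign of the log2 fold change in 7 of the 8 members, the exception being Scn4b. These are bulk tissue values, in which fewer cells of a type and less RNA per cell cannot be told apart. The summed level of 10 cardiomyocyte genes was 136774 to 155300 CPM in iNICD and 169456 to 175103 CPM in control libraries, without overlap. Of single genes, 4.59% had no overlap. Most of the sum was Ttn (74508 to 85308 CPM in iNICD, 85959 to 93766 CPM in control libraries) and Myh6 (35522 to 42177 CPM in iNICD, 33021 to 47016 CPM in control libraries). Neither of these passed the test. Of the 10 genes, 3 (Nppa, Myl4 and Myl7) fell, beside 1.84% of all genes tested that were lower. Ryr2 had a log2 fold change of 0.11 that did not pass. The part of that lower sum in the values of the channel genes was not tested.

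The levels of the members can be compared per length. In CPM per kilobase of exon, Gpd1l was at 13.1 ± 0.712 in iNICD and 12.1 ± 1.59 in control libraries, and Fgf12 at 10.6 ± 1.27 in iNICD and 13.0 ± 2.85 in control libraries (SD, n = 6 each). The ranges of these 2 genes overlapped in both groups. Below them came Scn4a, at 4.59 ± 1.47 in iNICD and 6.37 ± 1.94 in control libraries, and Fgf13, at 4.59 ± 0.597 in iNICD and 4.05 ± 0.858 in control libraries, which also overlapped. Scn4b followed, at 2.67 ± 1.76 in iNICD and 2.16 ± 0.480 in control libraries, with a range that overlapped that of Fgf13 in both groups.

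The lowest levels per length were those of Scn3b, Scn2b and Scn10a. Scn3b was at 0.434 ± 0.108 in iNICD and 0.306 ± 0.118 in control libraries, Scn2b at 0.264 ± 0.0950 in iNICD and 0.403 ± 0.124 in control libraries, and Scn10a at 0.204 ± 0.0953 in iNICD and 0.421 ± 0.172 in control libraries. The highest value of these 3 genes in any library, 0.610 for Scn10a in a control, was below the lowest value of Scn4b, 0.776 in an iNICD library. By mean, Scn3b stood above Scn2b and Scn10a in iNICD and below both in controls, but the ranges of the 3 genes overlapped in each group.

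**Figure D3:**
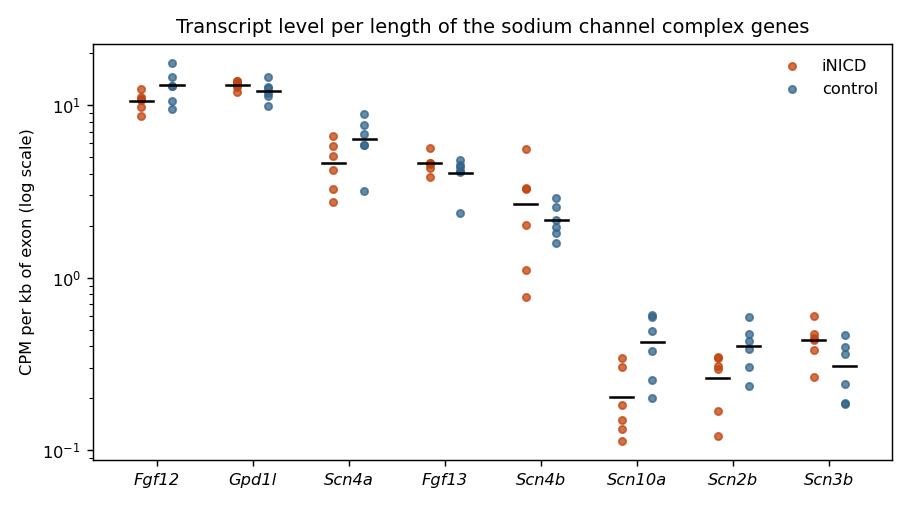
Level per length of each gene, in CPM per kilobase of exon on a log axis, for each iNICD (left of each pair) and control library, with group means as black lines. Fgf12 and Gpd1l lie highest, Scn4a, Fgf13 and Scn4b between, and Scn10a, Scn2b and Scn3b lie at or below 0.610.

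Other genes around the channel were taken from lists chosen with the members. The list of other sodium channel genes is reported in part, so no count is given for it as a whole. Scn2a, Scn3a, Scn7a and the leak channel gene Nalcn did not pass the limma test, and Scn1a, Scn8a, Scn9a and Scn11a were below the filter. Scn7a, which encodes a sodium-sensing relative of the voltage-gated channels, was at 120 ± 12.7 CPM in iNICD and 113 ± 8.47 CPM in control libraries (SD, n = 6 each, log2 fold change 0.08). Scn2a was at 3.88 ± 0.546 CPM in iNICD and 3.92 ± 1.07 CPM in control libraries (log2 fold change 0.02). Of the remaining FGF homologous factors, Fgf14 had a log2 fold change of 0.26 (limma adjusted p = 0.30) and Fgf11 one of -0.05 (0.93). The 2 glycerol-3-phosphate dehydrogenase genes related to Gpd1l, Gpd1 and Gpd2, had log2 fold changes of -0.17 and -0.12 and did not pass.

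Among 20 tested genes of proteins that anchor or traffic the channel, 1 rose and none fell, with a median log2 fold change of 0.04. The riser was the desmosomal cadherin gene Dsg2 (log2 fold change 0.67, limma adjusted p = 0.028), which stayed past the threshold in 7 of 12 leave-one-out fits and lost it without iNICD 1, 2, 3 or 6 or control 2 (adjusted p up to 0.072). That call was also lost without the 3 libraries richest in Gm42418 (adjusted p = 0.11). Among 12 genes of kinases, calmodulins and ubiquitin ligases that act on the channel, 1 rose and none fell, with a median of 0.05. That gene was Calm3, a calmodulin gene, at 430 to 728 CPM in iNICD and 377 to 469 CPM in control libraries (log2 fold change 0.37, limma adjusted p = 0.0498). Calm3 stayed past the threshold in only 2 of those 12 fits, without iNICD 3 or control 3, and its adjusted p reached 0.10. Of all genes tested 4.87% were higher in iNICD and 1.84% lower, so these single risers are not read as a result about their lists. Among 10 transcription factors of cardiac sodium channel genes, Tbx3 (log2 fold change -0.71) and Tbx5 (-0.58) fell and none rose, with a median of 0.11. Both were called in all 12 of those fits.

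The list of sodium transport partners is reported in part, so no count is given for it as a whole. Atp1b1, the beta subunit gene needed for assembly of the sodium pump, was at 252, 288 and 306 CPM (lowest, median and highest) in iNICD libraries, against 185, 208 and 246 CPM in control libraries. It rose without overlap between the groups (log2 fold change 0.43, SE 0.08, limma adjusted p = 0.0043). The Atp1b1 call was lost without the 3 libraries richest in Gm42418 (adjusted p = 0.055). The sodium-calcium exchanger gene Slc8a1 (log2 fold change -0.04) and the pump regulator gene Fxyd1 (-0.14) did not pass.

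**Figure D4:**
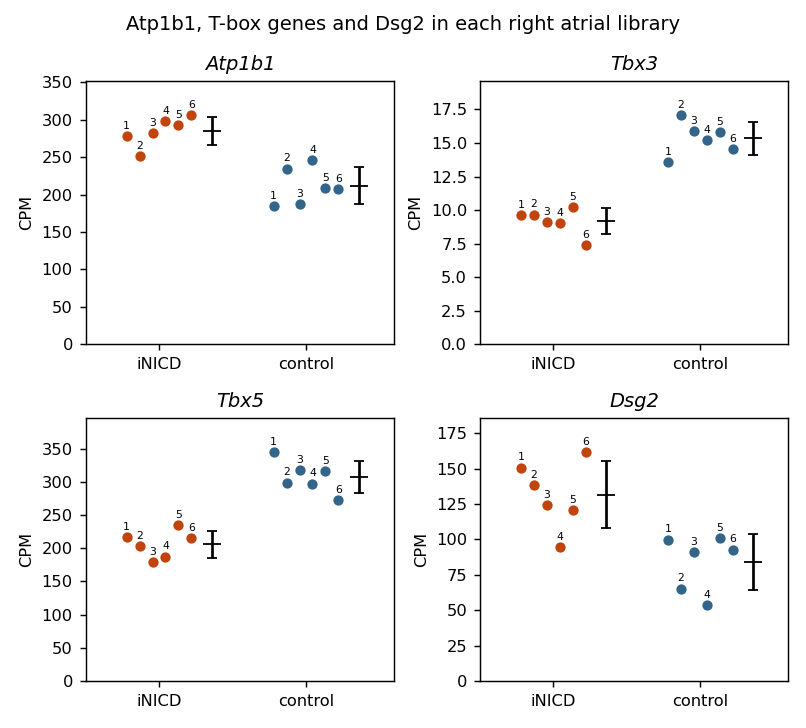
Level in CPM (vertical axes, each from 0) of the sodium pump gene Atp1b1, the T-box genes Tbx3 and Tbx5 and the desmosomal gene Dsg2 in each iNICD and control library, with the library number beside each point and the mean ± SD beside each group. Tbx3 and Tbx5 lie lower and Atp1b1 higher in iNICD without overlap, while Dsg2 lies higher in iNICD with 5 of 6 libraries above every control.

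By position, 5 of the 8 members lie on chromosome 9, but Scn2b and Scn4b are the pair with no other tested gene between them. The tested genes on either side of that pair are expressed in leukocytes. Amica1, an adhesion molecule gene, was at 1.41 CPM in iNICD and 0.629 CPM in control libraries and rose (log2 fold change 0.82, limma adjusted p = 0.016, and 0.097 without the 3 libraries richest in Gm42418). Its control mean was below the 1 CPM of the filter, and whether it passed the filter through the iNICD libraries was not looked at. In the fit with no filter on low values, the limma adjusted p of Amica1 was 0.019. The log2 fold change of Amica1 was 0.39 with a pseudocount of 2 and 1.18 with a pseudocount of 0.1. Il10ra, the receptor gene for interleukin 10, was at 15.2 CPM in iNICD and 8.99 CPM in control libraries and rose (0.70, limma adjusted p = 0.030). Il10ra stayed past the threshold in 5 of 12 leave-one-out fits, losing it without iNICD 1, 2, 3 or 5 or control 2, 3 or 5 (adjusted p up to 0.072), and also without those 3 libraries (adjusted p = 0.18). Of 4 macrophage markers 3 (Adgre1, Csf1r and C1qa) rose, beside 4.87% of all genes tested that were higher. The summed level over the 4 was 290.5 to 420.1 CPM in iNICD and 207 to 293 CPM in control libraries. The pan-leukocyte gene Ptprc, at 27.8 to 51.5 CPM in iNICD and 13.6 to 24.1 CPM in control libraries, rose too, while Cd3e and Cd79a were at or below 1.21 CPM in every library. The part of leukocytes in the values of Amica1 and Il10ra was not tested. No exon of a member overlapped an exon of another gene in GENCODE M21.

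The pattern of a member over the 12 libraries, after removing the group means, was compared with that of every other gene of at least 5 CPM. The measure was the root-mean-square distance of log2 levels scaled to SD 1, which had a median of 1.2 to 1.57 over the candidate genes. Fgf13 was nearest to Ccdc149 (distance 0.255) and to Kcnj3 (0.288), which encodes an atrial potassium channel subunit. Control 4 was low in all 3 genes, with Kcnj3 at 88.6 CPM there, against 221 to 312 CPM in the other controls. Fgf12 was nearest to Trdn (0.408), the gene of triadin at the calcium release site, and to Msl3 (0.420). The phosphodiesterase gene Pde4d was among the nearest to Scn10a (0.461), and Scn4a was nearest to Kctd7 (0.372) and Wdr13 (0.447).

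For Gpd1l the nearest genes were Tspan13 (0.400) and Psmg1 (0.403). Those of the beta subunits were farther, Pla2g3 (0.492) and Mpzl2 (0.503) for Scn2b, Exosc2 (0.510) and Aars (0.540) for Scn3b, and Edar (0.563) and Tgfb3 (0.582) for Scn4b. Within the complex the closest pair was Scn10a and Fgf12, at a distance of 0.890, followed by Scn4a and Fgf12 at 0.904.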

How the data were processed

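Right atrial RNA of 6 iNICD and 6 control libraries was measured by sequencing. The authors deposited CPM per gene and library. Per the submitters' processing notes the tools were STAR 2.4.0b and featureCounts. Build, annotation and strand setting are not stated in the sources used. Every deposited CPM value was a whole multiple of the value of 1 read (tolerance 0.001 reads, 100% of values), which gave 12015650 to 22716190 assigned reads per library. Each group is said to hold 6 different atrial samples, with no statement that each is 1 animal, so p-values measure the spread between these samples. Gm42418 stood apart in control 3, iNICD 3 and iNICD 5, and Xist was above 100 CPM in 3 iNICD and 4 control libraries.

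The 14336 genes that reached 1 CPM in 6 or more libraries were tested with limma 3.58.1 (R 4.3.3) on log2(CPM + 0.5), with a trend, robust empirical Bayes and no replicate block. p-values were adjusted by Benjamini-Hochberg. The log scale understates the change of low genes. Single genes also had an exact two-sided permutation test of 924 relabellings, with a smallest p of 0.0022. Positions and exon lengths came from GENCODE M21 (GRCm38) by Ensembl identifier, promoters from RefSeq (GRCm38.p6). Alternatives were other pseudocounts, filters and scalings, array weights, no robust estimation, a replicate block, an Xist covariate, a stricter threshold, libraries left out, and edgeR 4.0.16 and DESeq2 1.42.0 on recovered reads. The fits were tested on simulated data.

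The members and lists were chosen with earlier results of these data known. Named are the members, Notch1, Xist and Gm42418, up to 4 called genes per list, called markers, the 2 genes nearest in pattern to a member and the tested genes beside a member where called. Others were named after their values were seen. Some genes that this rule or the lists hold are not reported here, and counts and sums over a list include them unless a list is said to be reported in part.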

Additional observations from a re-analysis of the deposited data

Results flagged for a closer look

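Fgf13 in control 4 was at 9.56 CPM, far below the other controls at 16.4 to 19.3 CPM. The gap to the nearest control was 0.700 of the range of the group, above Dixon's 95% critical value for 6 samples. Chance gives such a gap in about 1 of 20 groups, and 16 groups (8 genes in 2 genotypes) were examined. Control 4 was also the lowest control for Scn10a (1.59 CPM), Scn4a (22.4 CPM) and Gpd1l (49.9 CPM) and the highest for Scn2b (2.74 CPM), Scn3b (2.55 CPM) and Scn4b (14.3 CPM).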

How the results depend on the processing

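Over the alternatives, 7 of the 8 members were called in none, and 7, all but Scn4b, kept the sign of their log2 fold change. The filter on a mean of 5 CPM left out Scn10a, Scn2b and Scn3b. The number of members past the threshold was 0 in the reported fit and 1, Scn10a, with quantile normalization, array weights, the replicate block and DESeq2, and 0 to 1 when 1 library was left out. The Scn4b value was -0.011 with median-of-ratios scaling, -0.025 with quantile normalization, -0.028 with the Xist covariate and -0.19 without the 3 libraries richest in Gm42418, and -0.22 to 0.32 when 1 library was left out. Over all genes, 698 were higher and 264 lower. Higher and lower calls were 314 and 115 at adjusted p under 0.01, and 378 and 145 without the 3 libraries richest in Gm42418. Lower calls were 407 with quantile normalization, 552 with array weights and 587 with DESeq2. With 1 library left out, higher calls were 458 (without iNICD 1) to 782 and lower calls 186 to 432 (without control 4). The share of calls that were higher was 72.6%, and 61.0% with median-of-ratios scaling, 59.7% with quantile normalization, 63.7% with array weights and 58.8% with DESeq2. The causes were not tested. With the replicate block 794 genes were higher and 297 lower, and Scn10a had adjusted p = 0.030 (log2 fold change -0.85). For numbers 1 to 6, same-numbered libraries had correlations of deviations of 0.247, 0.134, -0.00561, 0.144, 0.0054 and 0.325. Differently numbered libraries were not compared, so these values do not settle whether the numbers are pairs. No pairing is stated in the labels, and the reported fit has no block. That choice bears on Scn10a, with limma adjusted p = 0.079 in the reported fit. Scn10a and Scn2b had under 40 reads in every iNICD library. Scn3b was also low, with 22 to 47 reads in iNICD and 15 to 40 in control libraries. The effect of depth on the values of these genes was not tested.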
